A study of Rattus norvegicus with 6 samples.

Results

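Nuclear genes for respiratory complexes II, III and IV and for cytochrome c were taken from the deposited expression table by gene symbol. The symbols cover the succinate dehydrogenase subunits and their assembly factors, the cytochrome bc1 subunits with Cyc1 and Bcs1l, Cycs, and the numbered cytochrome c oxidase genes with Surf1 and Sco1. They picked out 43 of 35362 gene rows, lying on 17 chromosomes. These rows comprise 4 complex II subunits, 9 complex III subunits, 18 complex IV rows, cytochrome c, and 11 assembly factors. The subunits of complexes III and IV that are encoded by mitochondrial DNA are not among them.

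In the inner mitochondrial membrane, complex II passes electrons from succinate to ubiquinone, complex III passes them from ubiquinol to cytochrome c, and complex IV passes them from cytochrome c to oxygen. Complexes III and IV pump protons as they do so, and ATP synthase uses the proton gradient. In pancreatic beta cells, ATP from this pathway closes potassium channels and so links glucose to insulin secretion. Complex IV has catalytic subunits from mitochondrial DNA and a set of nuclear subunits, several of which exist in a widely expressed form and a form of muscle or other tissues.

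The cells were INS-1, a rat insulinoma line that secretes insulin, at passages 75 to 80. Both groups had been transduced with pMX-puro retroviruses and overexpressed Flag-tagged menin, the product of Men1 and a nuclear scaffold protein of histone methyltransferase complexes. In the S487D group the serine at the numbered residue was replaced by aspartate, an acidic residue often used to mimic phosphorylation. In the S487A group, against which it was set, it was replaced by alanine, which cannot be phosphorylated. Each group had 3 libraries of mRNA, and cells with wild-type menin or no transgene were not analysed here. Nothing in the labels says that the libraries of a group came from separate transductions or cultures, so the tests measure only the spread between these libraries, which may be technical. The mutant cannot be told apart from other differences between the transduced populations.

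Values are RPKM, reads scaled by gene length and by the reads assigned to genes in the library. Library totals were 9444801 to 10867549 reads, and a tested gene of the respiratory set had 77 to 6783 reads in a library. Men1, whose level does not show which mutant a library carries, had 113, 103 and 119 RPKM in S487D and 71.2, 76.7 and 75.0 RPKM in S487A libraries. All 11 beta cell markers were detected in every library, with summed levels of 17763 to 18965 RPKM in S487D and 5388 to 5936 RPKM in S487A. Summed fibroblast, immune and endothelial markers were at or below 1.20 RPKM in every library. The alpha cell hormone gene Gcg was far higher in S487D, at 864, 783 and 809 RPKM, than in S487A, at 92.9, 91.6 and 104 RPKM (change 3.08, limma adjusted p = 7.39e-10). The summed level of all 6 markers of other islet cells was 783 to 865 RPKM in S487D and 92.9 to 106 RPKM in S487A. What part these marker shifts have in the results was not tested. Ribosomal RNA took 2.15 to 4.50% of assigned reads in S487D and 0.930 to 2.49% in S487A.

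A gene was tested if it had at least 1 RPKM in at least 3 libraries, which 34 of the 43 genes did. The test was limma on log2(RPKM + 1) over 12527 genes, with Benjamini-Hochberg adjustment over all of them, and a gene was called at an adjusted p under 0.05. Changes are S487D minus S487A on this log2 scale. Of the 34 genes, 15 rose, 2 fell and 17 were not called, with a median change of 0.15. Among all genes tested, 20.1% were called higher and 24.3% lower, and the median change was -0.01. The members' share called higher was 44.1%.

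The members are abundant transcripts, and abundant transcripts as a whole were called higher more often. This split by level was chosen after the values were seen. Of the 807 genes with a mean of at least 100 RPKM over the 6 libraries, 48.5% were called higher and 15.5% lower, with a median change of 0.12. The 18 members in that range had 11 called higher and 1 lower, and a median of 0.20. Of the 5955 genes between 10 and 100 RPKM, 24.9% were called higher, and of the 12 members there, 4. Set against other abundant genes, the excess of risen members was thus much smaller than against all genes. Centring each library on its median made 28% of all genes higher and 19.6% lower, and 20 members higher and 1 lower.

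All the changes of tested members were small. The 15 rises had fitted folds of 1.14 to 1.31, with a median of 1.17, and no tested member passed a fitted 1.5-fold in either direction. The libraries of the 2 groups did not overlap for 19 members, 17 of them with S487D above and 2 with S487D below, and overlapped for 15. Over all genes tested, 25% lay with S487D above without overlap and 29.5% with S487D below.

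**Figure D1:**
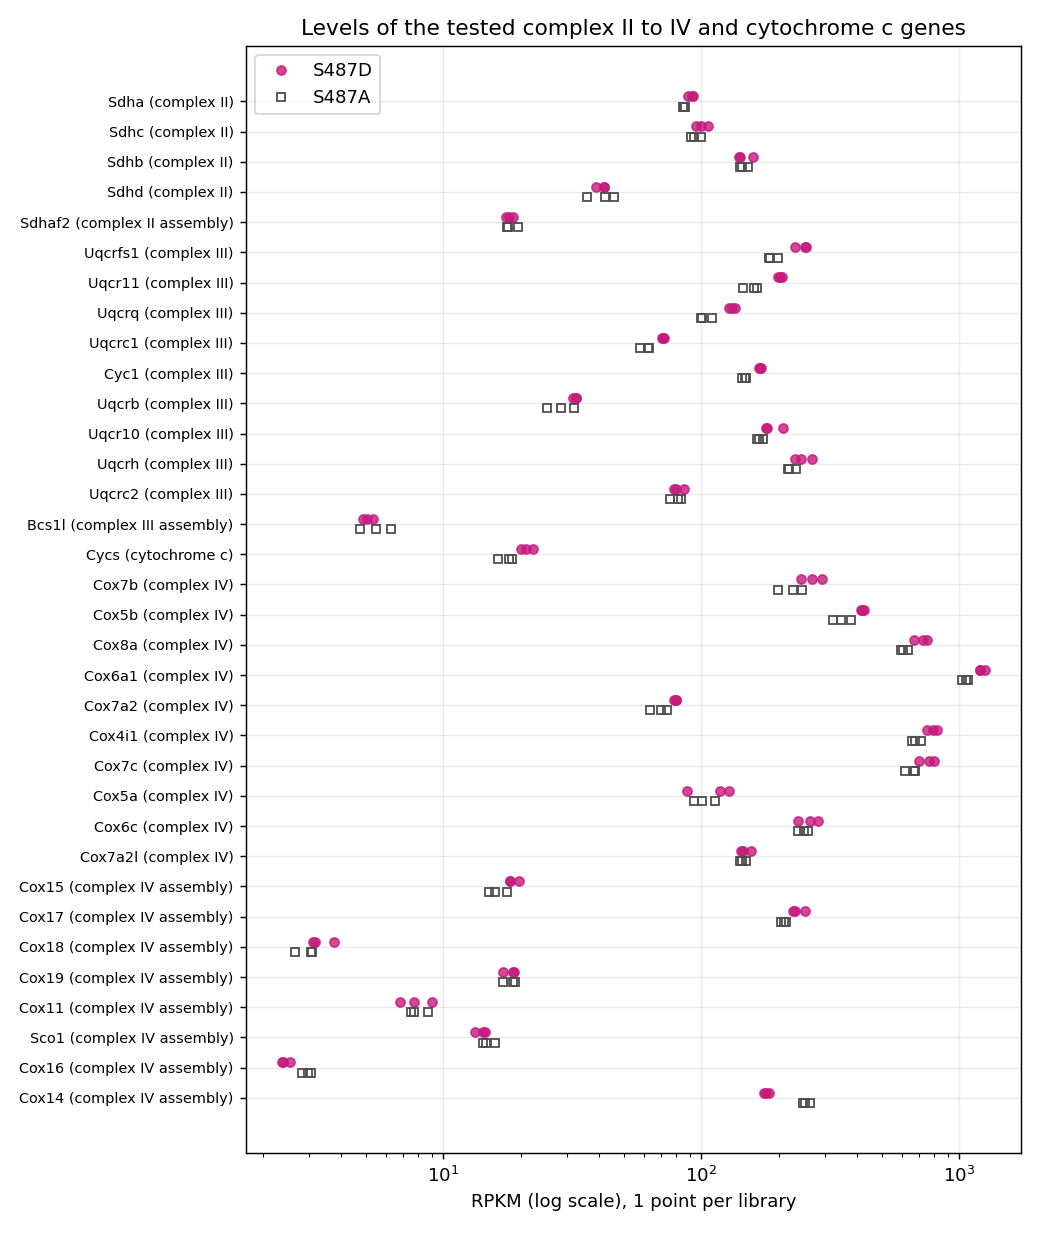
RPKM of the 34 tested genes in each of 6 libraries, on a log axis, with filled circles for S487D and open squares for S487A. Levels span 2.70 RPKM (mean over libraries) to 1138 RPKM, and the offset between groups is small against that span, widest in Cox14, Uqcrfs1 and Uqcr11.

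None of the 4 complex II subunits was called with the values as deposited. After median centring Sdha and Sdhc were called higher, by 0.15 and 0.14 (limma adjusted p = 0.00804 and 0.0467), and Sdha alone was called with the most read genes and ribosomal RNA left out. Sdha, the flavoprotein subunit that oxidises succinate, had 93.0, 88.5 and 91.8 RPKM in S487D and 84.6, 85.4 and 86.7 RPKM in S487A. The groups did not overlap, but the change of 0.09 did not pass the test (SE 0.0375, limma adjusted p = 0.0799). Sdhb, the iron-sulfur subunit, had 141, 159 and 139 RPKM in S487D and 143, 141 and 152 RPKM in S487A. Its change was 0.01, with a 95% interval of -0.12 to 0.13. The membrane anchor subunits Sdhc and Sdhd had changes of 0.08 (interval -0.03 to 0.20) and -0.01 (interval -0.19 to 0.16). Sdhaf2, which helps to attach flavin to the flavoprotein, differed by -0.02. Together the 4 subunits summed to 379 ± 11.8 RPKM in S487D and 367 ± 15.1 RPKM in S487A (SD, n = 3 each).

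In complex III, 5 of 9 subunits rose (55.6%), and none fell, with a median of 0.20. Over all genes tested 20.1% were called higher, and 48.5% of those with a mean of at least 100 RPKM. The share in complex III was thus near that of abundant genes. The largest rise among the tested members was Uqcrfs1, the Rieske iron-sulfur protein that takes electrons from ubiquinol. It had 253, 255 and 230.2 RPKM in S487D and 182, 184 and 198 RPKM in S487A. Every S487D library was above every S487A library, and the change was 0.38 (SE 0.0511, limma adjusted p = 2.71e-04). A second row, LOC102550068, overlaps only the start of Uqcrfs1, on the same strand, and averaged 27.1 RPKM in S487D and 21.7 RPKM in S487A.

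Uqcr11, a small structural subunit, had 201, 198 and 205 RPKM in S487D and 144, 159.6 and 164 RPKM in S487A, a change of 0.37 (SE 0.0499, limma adjusted p = 3.16e-04). Uqcrq, the ubiquinone-binding small subunit, had 134, 131 and 128 RPKM in S487D and 99.6, 101 and 109.6 RPKM in S487A, a change of 0.34 (SE 0.0456, limma adjusted p = 2.67e-04). In both genes the groups were clearly apart. Uqcrc1, a core subunit, had 71.5, 71.2 and 70.4 RPKM in S487D and 58.0, 62.5 and 62.0 RPKM in S487A. It rose by 0.22 (limma adjusted p = 0.00216). Cyc1, the cytochrome c1 heme protein, had 170.2, 168 and 169 RPKM in S487D and 144, 149 and 148 RPKM in S487A, and rose by 0.20 (limma adjusted p = 0.00149).

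The other 4 complex III subunits were not called, although 8 of the 9 subunits were called higher after median centring. Voom on recovered reads, the most read genes and ribosomal RNA left out, and S487D replicate 3 left out each gave 7. Uqcr10 had 179, 208 and 178 RPKM in S487D and 167, 165 and 173 RPKM in S487A, without overlap (change 0.16, limma adjusted p = 0.0576). Uqcrh, the acidic hinge protein, had 269, 242 and 230.4 RPKM in S487D and 219, 216 and 233 RPKM in S487A (change 0.15, limma adjusted p = 0.0659). Uqcrb overlapped between groups, with a change of 0.18 (limma adjusted p = 0.0803). Uqcrc2, the other core subunit, had a change of 0.02 (interval -0.09 to 0.13), while its partner Uqcrc1 rose. The change of Uqcrc2 was -0.01 after quantile normalization, -0.02 with S487A replicate 2 left out and -0.01 with S487D replicate 1 left out. Whether those 2 changes differ was not tested. Bcs1l, the ATPase that inserts the Rieske protein, had 5.32, 4.90 and 5.07 RPKM in S487D and 4.77, 6.25 and 5.48 RPKM in S487A, and was not called.

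Cycs, cytochrome c itself, carries electrons between complexes III and IV and also acts in apoptosis when released from mitochondria. It had 20.9, 22.2 and 19.9 RPKM in S487D and 18.4, 16.3 and 18.0 RPKM in S487A. The groups did not overlap, and the change was 0.24 (SE 0.0612, limma adjusted p = 0.00964). RefSeq lists 7 pseudogene symbols for Cycs, and how reads of such copies were counted is not given in the sources used here.

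**Figure D2:**
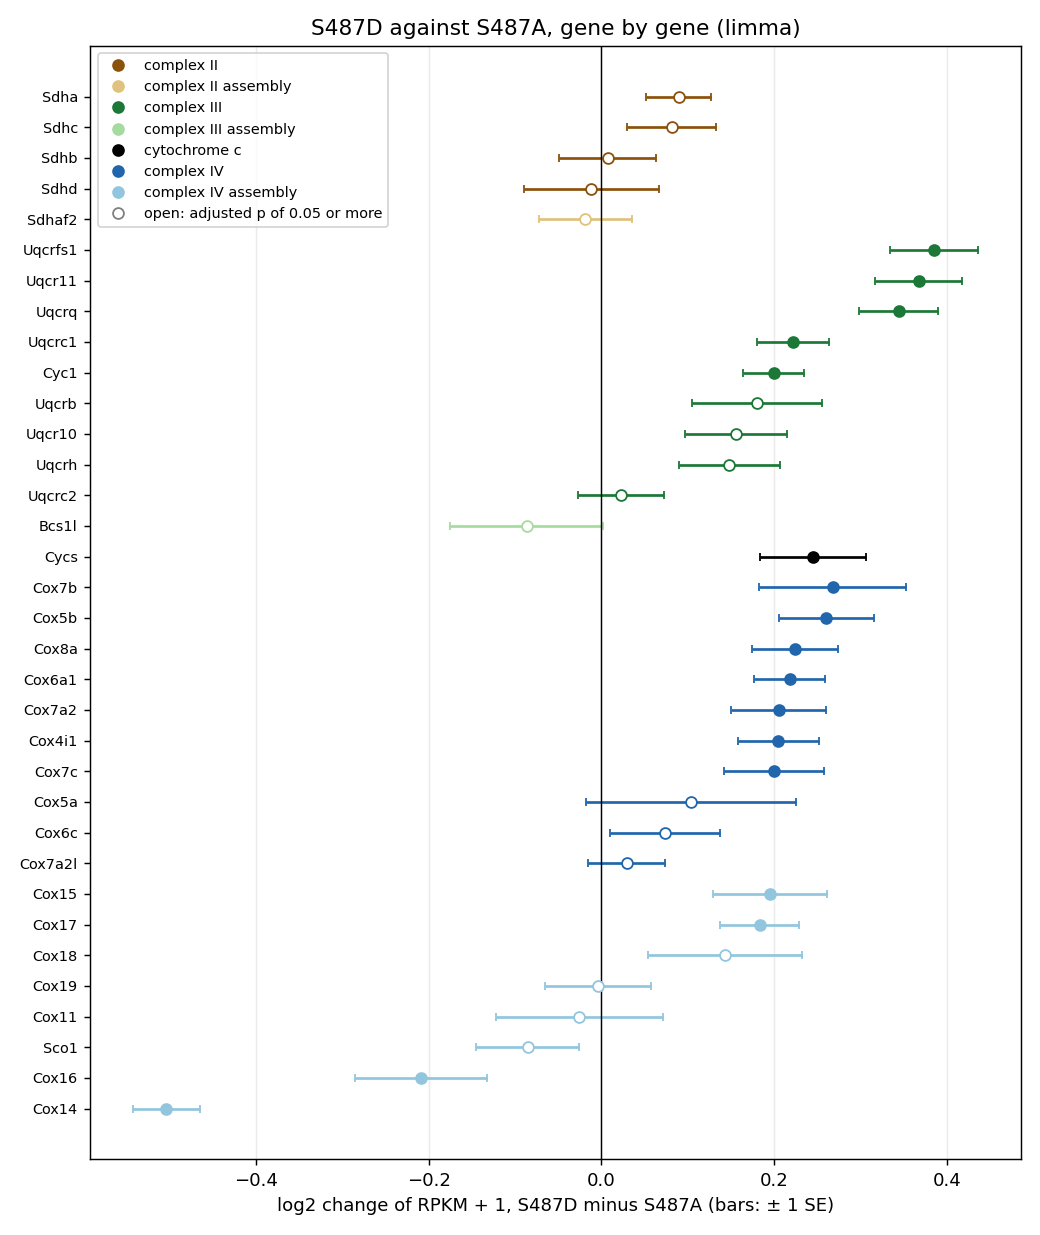
Change of each tested gene (points, S487D minus S487A, log2 of RPKM + 1) with 1 SE to each side, coloured by complex and role. Filled points passed an adjusted p of 0.05. The called complex III and IV subunits lie to the right of 0, complex II subunits near 0, and Cox14 far to the left at -0.50.

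Complex IV had 10 tested rows, of which 7 rose (70%) and none fell, with a median of 0.20. Over all genes tested 20.1% were called higher, and 48.5% of those with a mean of at least 100 RPKM. The sign of the 7 calls held under every alternative. Those of Cox6c, Cox7a2l and Cox5a, which were not called, turned negative under quantile normalization or with 1 S487D library left out. Cox6a1, the most abundant member, had 1205, 1207 and 1259.9 RPKM in S487D and 1019, 1079.7 and 1058 RPKM in S487A. It rose by 0.22 (SE 0.0410, limma adjusted p = 0.00217), with no overlap. Cox5b, a zinc-binding subunit on the matrix side, had 415, 426 and 419.6 RPKM in S487D and 347, 325 and 382 RPKM in S487A. Its change was 0.26 (SE 0.0553, limma adjusted p = 0.00416), again without overlap.

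Cox4i1, the subunit known as a site of regulation by ATP, had 787, 816 and 749 RPKM in S487D and 657, 672 and 711 RPKM in S487A (change 0.20, limma adjusted p = 0.00627). Cox8a had 722, 748 and 666 RPKM in S487D and 594, 603 and 629 RPKM in S487A (change 0.22, limma adjusted p = 0.00514). Both span the membrane beside the catalytic core, and neither showed overlap. Cox7a2 had 78.6, 80.0 and 79.4 RPKM in S487D and 73.8, 63.2 and 69.4 RPKM in S487A (change 0.20, limma adjusted p = 0.0134). Cox7c had 759.6, 799.6 and 695 RPKM in S487D and 669, 616 and 675 RPKM in S487A (change 0.20, limma adjusted p = 0.0199). Cox7b was the only risen member whose groups overlapped, with 269, 294 and 244 RPKM in S487D and 246, 198 and 226 RPKM in S487A (change 0.27, limma adjusted p = 0.0290). Opposite-strand rows overlap Cox7a2 (LOC100363289, means 31.6 RPKM in S487D and 27.5 in S487A) and Cox7b (LOC100363531, 62.9 and 55.3). LOC252890, inside Cox7c on its strand, averaged 1.13 RPKM in S487D and 2.15 RPKM in S487A. Whether shared reads enter these changes was not tested.

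Cox7c and Cox7b were not called without S487D replicate 1, without S487D replicate 2 or without S487A replicate 2. Their limma adjusted p then lay between 0.0645 and 0.107. Neither was called with no filter on low values, nor was Cox7b without an intensity trend.

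The complex IV count depended on the scaling. After quantile normalization, which gives every library the same distribution of values, 3 of the 10 rows were called higher and their median change was 0.07. Cox6a1, Cox5b and Cox7a2 were called. Under it Cox4i1 changed by 0.00 (limma adjusted p = 0.942), Cox7c by 0.02, Cox8a by 0.08 and Cox7b by 0.17, none of them called. Complex III kept 5 calls and a median of 0.19 under the same setting, and Cycs changed by 0.28 and was called.

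Cox5a, Cox6c and Cox7a2l were not called. Cox5a had 118, 128 and 88.1 RPKM in S487D and 101, 93.6 and 113 RPKM in S487A, so that S487D replicate 3 lay below every S487A library. Its change was 0.10 with all libraries and 0.26 without S487D replicate 3 (limma adjusted p = 0.0244). That library had the lowest value of its group in 21 of the 34 tested genes. Cox6c had a change of 0.07 (interval -0.07 to 0.22), and Cox7a2l, which takes part in joining complexes III and IV into supercomplexes, a change of 0.03 (interval -0.07 to 0.13).

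Where complex IV subunits exist in several forms, INS-1 cells of both groups expressed the widely distributed one. Over all 6 libraries Cox4i1 had 30709 reads and Cox4i2, a form known from lung, had 0. Cox6a1 had 37660 reads and Cox6a2, the heart and muscle form, 1 read. Cox7b had 6637 reads and Cox7b2 1 read. Cox8a had 19698 reads, Cox8b 1 read and Cox8c 0. Thus the form used did not differ detectably between S487D and S487A.

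Of the 9 rows that were not tested, Surf1, Cox4i2, Cox6b2 and Cox8c were listed at 0 in every library. The highest untested row was Cox7a2l2, with 1.54, 1.19 and 0.478 RPKM in S487D and 0.450, 0.623 and 0.439 RPKM in S487A, or 14 and 7 reads in all. The row named Cox6b1 had 1 read in each group. RefSeq gives its position to a pseudogene, and the functional Cox6b1, a subunit facing the intermembrane space, stands in the table as LOC688869. That row had 207, 197 and 203 RPKM in S487D and 186, 179.6 and 187 RPKM in S487A, and was called higher (change 0.13, limma adjusted p = 0.0167). The call was lost under quantile normalization, without an intensity trend, without S487D replicate 1 (limma adjusted p = 0.0740) and without S487A replicate 2 (0.0639). It was looked up after the values were seen, as were the rows below.

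The RefSeq names also matched LOC103693419 to Cox11, LOC691853 to Cox10 and Acn9 to Sdhaf3, a complex II assembly factor. Acn9 rose, with 6.68, 7.81 and 6.62 RPKM in S487D and 5.04, 4.93 and 4.92 RPKM in S487A (change 0.43, limma adjusted p = 0.00132). LOC103693419 fell, with a mean of 9.14 RPKM in S487D and 10.9 RPKM in S487A (change -0.23, limma adjusted p = 0.0385). It overlaps the row named Cox11, which was not called, so the direction of Cox11 is uncertain. With all such rows counted, 17 were higher and 3 lower.

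Of the 10 tested assembly factors, 2 rose, 2 fell and 6 were not called, with a median of -0.02. Those shares were about the same as over all genes, of which 20.1% were higher and 24.3% lower. Of the 23 tested subunits of the 3 complexes, 12 rose and none fell, with a median of 0.20. The difference between the lists was not tested. The lists also differ in level: most of these subunits averaged at least 100 RPKM, and most of the assembly factors less. Over all genes, 48.5% were called higher at 100 RPKM or more, 24.9% between 10 and 100 RPKM and 11.3% below 10 RPKM. Cox17, the copper chaperone that delivers copper towards the enzyme, had 232, 251 and 226 RPKM in S487D and 203, 208.5 and 212 RPKM in S487A (change 0.18, limma adjusted p = 0.00946). After quantile normalization its change was 0.06 (limma adjusted p = 0.236). Cox15, needed to make heme A, had 19.6, 18.1 and 18.1 RPKM in S487D and 17.7, 15.0 and 15.8 RPKM in S487A (change 0.20, limma adjusted p = 0.0365). Its call was lost when any of 5 libraries was left out, all but S487A replicate 1, with a limma adjusted p of 0.0539 to 0.125.

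Cox14, an assembly factor that binds newly made COX1 protein, fell furthest. It had 175, 178 and 183 RPKM in S487D and 247, 252 and 263 RPKM in S487A, widely separated (change -0.50, SE 0.0390, limma adjusted p = 7.93e-06). Cox16 had 2.39, 2.55 and 2.36 RPKM in S487D and 3.07, 2.84 and 3.00 RPKM in S487A, also without overlap. Its change of -0.21 passed the limma threshold only just and was lost whichever library was left out (limma adjusted p of 0.0647 to 0.124) and in 13 alternatives in all. Sco1, another copper chaperone, had 14.5, 14.2 and 13.3 RPKM in S487D and 15.9, 14.2 and 14.6 RPKM in S487A and was not called. Cox18 and Cox19 had changes of 0.14 and -0.00 and were not called.

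The fall of Cox14 went with its chromosomal surroundings. Of its 40 nearest tested genes, 20 on each side, 38 were called lower and 1 higher, and their median change was -0.57. The gene lies on chromosome 7 in the stretch from 130 to 145 Mb (rn6), among the stretches known from earlier results of these data to move together. No other tested member lay in it or in the stretches checked on chromosomes 2, 14 and 20. The surroundings of Men1 on chromosome 1, near which Cox8a lies, were not among the stretches checked. Cox8a had the opposite setting, with 22 neighbours called higher, 4 lower and a neighbour median of 0.23, against its own 0.22. Uqcr11 changed by 0.37 where its neighbours had a median of 0.17. For Uqcrq, Cox5b and Cox7c the neighbour medians were negative, at -0.06, -0.09 and -0.12, while the genes themselves rose. Over all 34 genes, 25 lay above their neighbours' median and 9 below, and the neighbour medians themselves had a median of -0.00. How far the surroundings account for any one change was not tested.

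**Figure D3:**
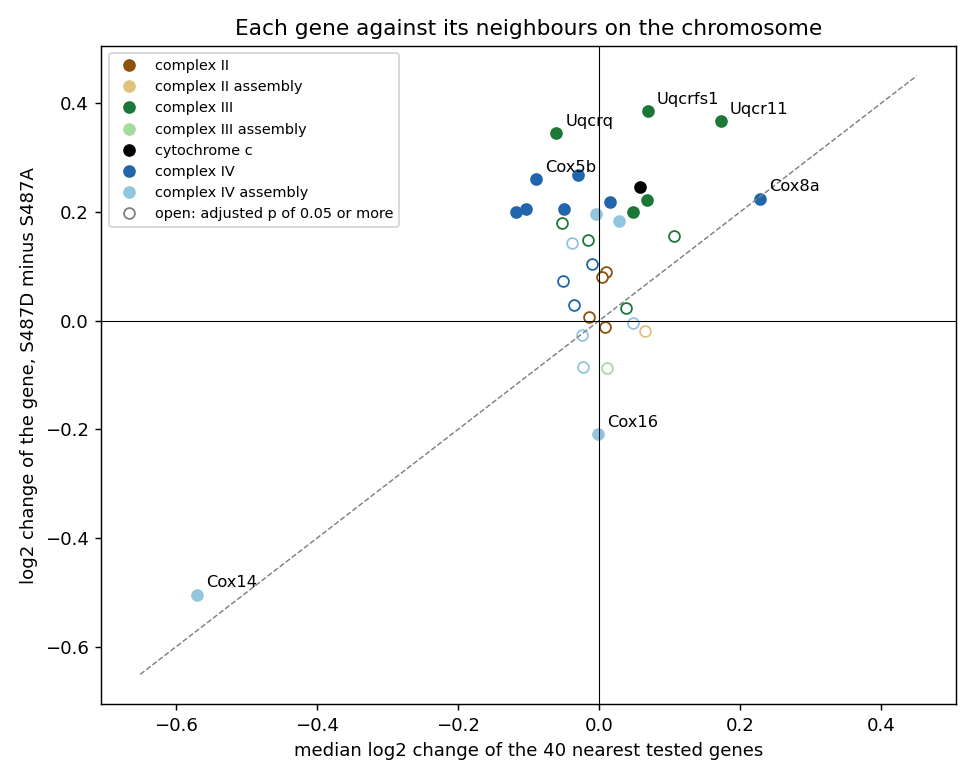
Change of each tested gene (vertical axis) against the median change of its 40 nearest tested genes on the chromosome (horizontal axis), both as log2 S487D minus S487A, with equality dashed. Cox14 and Cox8a lie close to the dashed line, and most risen subunits stand above it over neighbours near 0.

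Summed over genes, the 9 complex III subunits reached 1368 ± 38.3 RPKM in S487D and 1155 ± 37.2 RPKM in S487A (SD, n = 3 each), a ratio of 1.18. The complex IV rows reached 4761 ± 174 RPKM in S487D and 4134 ± 125 RPKM in S487A, a ratio of 1.15. In both sums every S487D library was above every S487A library. Complex IV assembly factors summed to 480 ± 11.8 RPKM in S487D and 525 ± 10.8 RPKM in S487A, a ratio of 0.914. Cox14 alone averaged 179 RPKM in S487D and 254 RPKM in S487A, a larger drop than that of the sum. Cox17, the other large contributor, was higher in S487D, at 236 RPKM against 208 RPKM. The lower sum is thus not a trait of the whole list. All 43 rows took 0.489 to 0.515% of assigned reads in S487D and 0.443 to 0.466% in S487A. In such bulk samples, more cells of a type and more RNA per cell cannot be told apart.

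**Figure D4:**
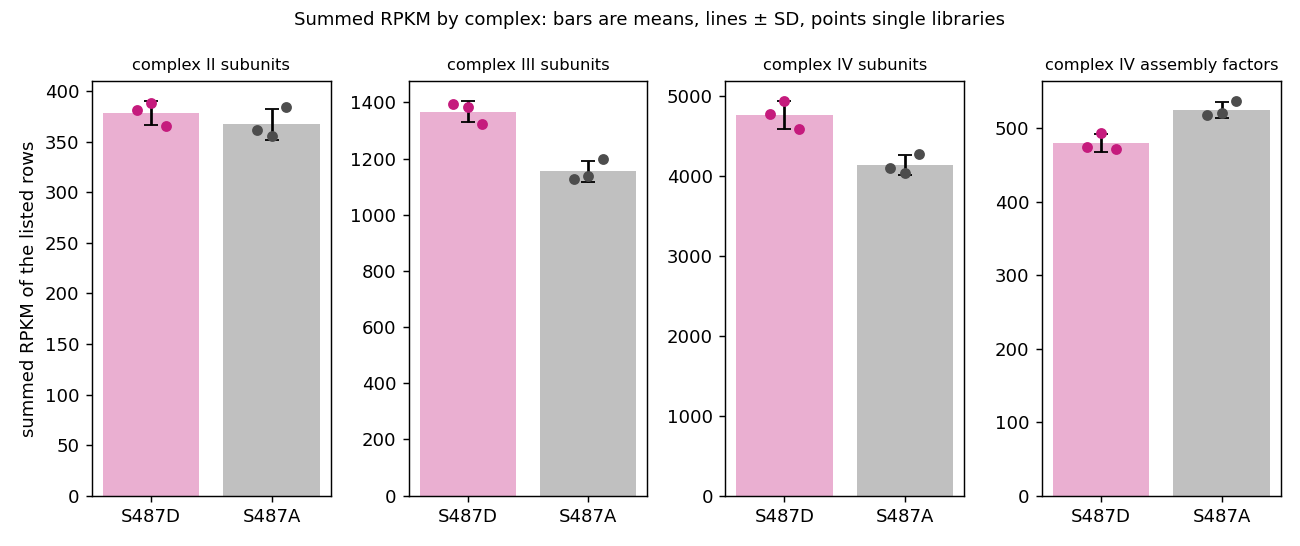
Summed RPKM of complex II, complex III, complex IV and complex IV assembly factor rows. Bars are means of 3 libraries, lines ± SD and points single libraries. S487D exceeds S487A for complexes III (1368 and 1155) and IV (4761 and 4134), and lies below it for the assembly factors (480 and 525). Within that last sum Cox14 alone averaged 179 RPKM in S487D and 254 RPKM in S487A, a larger drop than that of the sum.

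Other nuclear genes of oxidative phosphorylation and the mitochondrial ribosome, picked by symbol alone, were set beside these. Some rows may belong elsewhere: RefSeq now names Atp5sl as Dmac2 and Mrps36 as Kgd4. Over all genes tested, 20.1% were called higher and 24.3% lower, and 48.5% were higher at a mean of 100 RPKM or more. The lists here were not split by level. Of 38 tested genes with complex I symbols, 19 rose (50%) and 2 fell, with a median of 0.16. Ndufb6 and Ndufb2 rose by 0.39 each, and Ndufb5 and Ndufc1 fell by 0.64 and 0.68. Those that fell both lie in another such stretch, on chromosome 2 from 105 to 182 Mb. Of 16 ATP synthase genes, 9 rose (56.25%) and 1 fell, with a median of 0.21. Atp5i rose most, to a mean of 323 RPKM in S487D against 147 RPKM in S487A, and lies in a stretch of chromosome 14 (1 to 11 Mb). The gene that fell, Atp5g2, averaged 489 RPKM in S487D and 659 RPKM in S487A and lies in the same chromosome 7 stretch as Cox14. Among 68 mitochondrial ribosomal protein genes, 25 rose (36.8%) and 3 fell, with a median of 0.13. None of 7 complex I assembly factors was called in limma, with a median of 0.12, and 4 were called higher after quantile normalization.

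**Figure D5:**
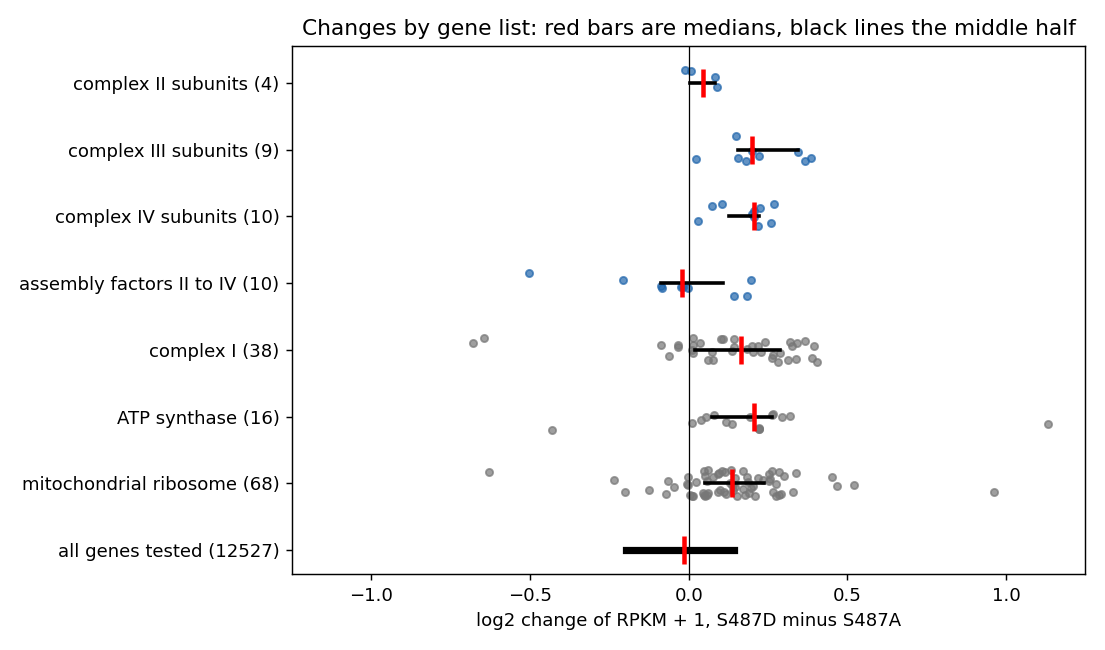
Change of each tested gene by list (points, log2 S487D minus S487A), with red bars for medians and black lines for the range from the lower to the upper quartile. Complex III and IV subunits, complex I, ATP synthase and mitochondrial ribosomal genes have medians of 0.13 to 0.21, assembly factors -0.02, complex II 0.04 and all 12527 genes -0.01.

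Further genes listed with complex III and IV assembly gave 7 higher and 3 lower of 22 tested, with a median of 0.05. Those are 31.8% and 13.6%, against 20.1% higher and 24.3% lower over all genes tested. Not all of them need be assembly factors. Ndufa4, called higher, is counted here and also among the genes with complex I symbols. Pet100, a complex IV assembly factor, rose by 0.30 and Uqcc1, a complex III assembly factor, by 0.18. Lyrm7, which stabilises the Rieske protein before its insertion, fell by 0.28, the opposite direction to Uqcrfs1. Lrpprc, which stabilises mitochondrial mRNAs, fell by 0.16. In ubiquinone synthesis 3 of 13 genes rose (23.1%) and 2 fell (15.4%), so the share that rose was close to that over all genes. Coq2, which joins the ring to its isoprenoid tail, averaged 27.5 RPKM in S487D and 15.0 RPKM in S487A, and Coq7 rose by 0.30. Coq2 shares the chromosome 14 stretch with Atp5i. Pdss2, in a chromosome 20 stretch (29 to 56 Mb), and Coq10a fell by 0.27 and 0.17.

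Of 13 tested regulators of respiratory genes, 2 rose (15.4%) and none fell, with a median of 0.05. Over all genes tested, 20.1% were called higher and 24.3% lower. Esrra, a nuclear receptor that drives mitochondrial genes, had 35.8, 39.0 and 37.9 RPKM in S487D and 25.6, 28.2 and 25.9 RPKM in S487A (change 0.49, limma adjusted p = 7.35e-05). It lies on chromosome 1 between Men1 and Cox8a. Pprc1, a coactivator related to PGC-1alpha, averaged 32.6 RPKM in S487D and 25.5 RPKM in S487A (change 0.34, limma adjusted p = 5.93e-04). Nrf1 and Gabpa, whose products bind promoters of respiratory genes, had changes of -0.13 and -0.16 and were not called (limma adjusted p = 0.0790 and 0.0547). Ppargc1a, which encodes PGC-1alpha, averaged 0.301 RPKM in S487D and 0.186 RPKM in S487A and was too low to be tested.

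Promoters were searched for the letters known from such factors, in the window of 250 bases before to 50 after each RefSeq start (GRCr8), on both strands. The ETS letters CCGGAAG, of the kind bound by GABP, stood in 14 of 30 promoters of tested members (46.7%), against 8.75% of all 33469 promoters and 18.1% of the 10525 promoters of tested genes. The NRF1 letters, GCGCA, any base and GCGC, stood in 13.3% of the members' promoters, 4.25% of all and 10.1% of those of tested genes. YY1 letters ATGGCGG stood in 16.7% of members, 4.80% of all and 10.1% of tested genes. The cyclic AMP response letters TGACGTCA stood in 6.67% of members, 1.83% of all and 3.18% of tested genes. ETS letters were as frequent in the promoters of members called higher (6 of 13) as in those of members not called (7 of 15). Here Cox6b1 is the functional gene, counted by its LOC688869 values. Not among these promoters are Cox6a1, Cyc1 and Uqcr11, which were called higher, and Cox6c and Uqcrb, which were not called.

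The 100 bases before the start are shown for risen genes of 2 complexes and of heme A synthesis that hold such letters, and for Cox14, which fell and holds none in the searched window. Each runs 5′ to 3′ on the strand of the gene, in lower case with matches to the searched letters, on either strand, in capitals. In Cox8a the capitals are TGACGTCA and the ETS letters in reverse, in Uqcrc1 the NRF1 letters in reverse, in Uqcrq and Cox5b the ETS letters, and in Cox15 both NRF1 and ETS letters. The positions are chr10:38089979-38090078 (minus strand) for Uqcrq, chr8:118468123-118468222 (plus) for Uqcrc1, chr9:46417737-46417836 (plus) for Cox5b, chr1:213833624-213833723 (minus) for Cox8a, chr1:252571472-252571571 (minus) for Cox15 and chr7:132730969-132731068 (plus) for Cox14, all in GRCr8.
Uqcrq: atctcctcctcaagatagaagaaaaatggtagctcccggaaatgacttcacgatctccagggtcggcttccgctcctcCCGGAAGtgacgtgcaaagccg
Uqcrc1: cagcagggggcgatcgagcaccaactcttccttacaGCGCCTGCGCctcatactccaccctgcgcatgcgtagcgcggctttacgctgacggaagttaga
Cox5b: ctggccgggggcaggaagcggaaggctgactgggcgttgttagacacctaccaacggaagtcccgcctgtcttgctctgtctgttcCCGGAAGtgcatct
Cox8a: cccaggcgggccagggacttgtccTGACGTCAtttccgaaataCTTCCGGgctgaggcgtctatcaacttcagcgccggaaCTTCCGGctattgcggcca
Cox15: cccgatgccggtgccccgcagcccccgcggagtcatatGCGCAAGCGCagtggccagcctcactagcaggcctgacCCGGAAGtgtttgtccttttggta
Cox14: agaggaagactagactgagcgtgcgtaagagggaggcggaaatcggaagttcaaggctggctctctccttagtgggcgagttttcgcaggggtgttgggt

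Uqcrq and Cox5b, from complexes III and IV, both carry the ETS letters in the bases just shown, and both rose. Uqcrfs1 and Cycs rose too, and none of the searched letters stood in their windows. Cox16, the other member that fell, holds the ETS letters, and so do Sdhd and Sdhaf2, which were not called. A match is a string of letters and not a measured binding site.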

How the data were processed

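mRNA of 6 INS-1 samples was sequenced. The submitters' processing notes list TopHat2 2.0.13, cutadapt, bcl2fastq 2.17 and the build rn6 (Rnor_6.0). Which counter and gene annotation were used is not given in the sources used here. Each deposited value is the authors' RPKM of a gene, relative to reads assigned to listed genes. RPKM times gene length gave whole reads (within 0.05) for 100% of values up to 2000 reads and at least 99.95% of all values, so reads were recovered. Overlapping genes may share reads, since the TruSeq kit leaves strand unmarked.

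Members, lists and tests were chosen with earlier results of these data known. Any member may be named, and up to 2 called genes in each direction from each companion list. The two-sided test was limma with an intensity trend (version 3.58.1, R 4.3.3), fitted to log2(RPKM + 1), and the script was tested on simulated data. All 43 symbols matched RefSeq. Tables and figures used Python 3.11.15. Alternatives were pseudocounts, filters, normalizations, no trend, a replicate block, voom on recovered reads, genes left out and each library left out. Intervals are 95%.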

Additional observations from a re-analysis of the deposited data

How the results depend on the processing

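Under the alternatives tried, 11 to 20 members were called higher, against 15 in the fit reported. The lowest count came from quantile normalization (11) and the highest from median centring (20), and leaving out 1 library gave 12 to 17. Of the 15 risen genes, 9 were called under every alternative. The count of fallen members was 2 without an intensity trend and with voom, and 1 with pseudocounts of 0.1 and 0.01, a minimum of 5 RPKM or none, median centring, quantile normalization, the 10 most read genes and ribosomal RNA left out, the replicate block, each library left out (1 to 1) and the shifted stretches left out, where Cox14 itself is dropped. In the others the lost gene was Cox16. Counting rows under other RefSeq names, chosen after seeing the data, gave 17 higher and 3 lower. Replicate numbers did not pair the libraries: deviations of same-numbered libraries correlated at 0.00, -0.06 and 0.01. With the replicate block, 14 members were higher and 1 lower, Cox7c and Cox16 being lost. Bcs1l and Cox18, with few reads, had wide intervals. Cox5a, with 499 to 731 reads in a library, had a wider one, of -0.17 to 0.38. A row near 0 reads may reflect annotation as well as depth, as the row named Cox6b1 shows.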
